A study of Mus musculus with 36 samples.

Results

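Nuclear receptors are transcription factors, many of which are switched on by a small lipid-soluble ligand. The 10 genes described here encode receptors with known roles in B cells or macrophages: Esr1, Nr4a1, Nr4a2, Nr4a3, Pparg, Nr1h3, Rxra, Vdr, Rara and Nr3c1. They were chosen by name, with earlier results of these data known. They are 10 of the 40354 genes in the count tables, and all 10 are also among the 19067 genes of the normalized log2 tables. The data follow a B cell to macrophage transdifferentiation (BMT). B cells of mouse bone marrow received, by retrovirus, C/EBPα fused to an estrogen receptor (ER) part together with a human CD4 tag, and hCD4+ cells were grown with IL-7 on inactivated embryonic fibroblast feeders. Adding 17β-estradiol (E2) and myeloid cytokines (IL-3, FLT-3, mCSF-1 and mSCF) starts the process, so every induced group shared these agents. The factor was wild type (WT) or carried alanine (R35A) or lysine (R35K) in place of the arginine at position 35. RNA was sequenced before induction (0 hours post induction, hpi) and at 5 later timepoints, 1, 3, 6, 18 then 120 hpi. Biological replicates number 2 in all 18 groups, which makes 36 libraries. Whether they came from separate mice is not given in the sources used here, and the p-values measure only the spread between these libraries, which may be technical. The cells were infected pools, and the age of the mice is not given in the sources used here.

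The receptors fall into several families. Nr4a1, Nr4a2 and Nr4a3 (Nur77, Nurr1 and Nor1) are immediate early genes that act without a known physiological ligand and are induced by antigen receptor and inflammatory signals. Rxra encodes the retinoid X receptor, the shared dimer partner of the retinoic acid receptor (Rara), the vitamin D receptor (Vdr), PPARγ (Pparg) and the oxysterol sensor LXRα (Nr1h3). Pparg and Nr1h3 control lipid handling in macrophages. Nr3c1, the glucocorticoid receptor, and Esr1, the estrogen receptor α, are steroid receptors held by chaperones until hormone binds. E2, the inducer used here, is itself the ligand of the Esr1 product.

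The promoters of the NR4A genes are shown because these 3 genes moved together. Bases upstream of each RefSeq start are written 5′ to 3′ on the gene's strand (GRCm38.p6, that is mm10), with both orientations of the CREB half-site TGACG in capitals, as TGACG or as its complement CGTCA. The window of Nr4a1 is chr15:101266596-101266845 on the plus strand, inside an intron of a longer annotated Nr4a1 transcript. The window of Nr4a2 is chr2:57124004-57124253 on the minus strand. That of Nr4a3 is chr4:48045055-48045152 on the plus strand and stops before the first annotated transcript start.
Nr4a1: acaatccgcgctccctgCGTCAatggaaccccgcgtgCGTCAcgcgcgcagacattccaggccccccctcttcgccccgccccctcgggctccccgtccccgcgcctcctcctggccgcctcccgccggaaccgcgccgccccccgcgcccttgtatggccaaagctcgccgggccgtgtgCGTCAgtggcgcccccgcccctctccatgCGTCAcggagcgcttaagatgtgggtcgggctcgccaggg
Nr4a2: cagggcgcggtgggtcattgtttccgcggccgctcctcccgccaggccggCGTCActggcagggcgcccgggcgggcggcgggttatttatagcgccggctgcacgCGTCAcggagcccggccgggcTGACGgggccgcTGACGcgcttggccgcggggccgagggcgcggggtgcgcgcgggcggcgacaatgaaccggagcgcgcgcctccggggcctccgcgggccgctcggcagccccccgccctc
Nr4a3: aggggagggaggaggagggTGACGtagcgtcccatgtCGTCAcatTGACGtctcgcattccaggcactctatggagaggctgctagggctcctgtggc
Each of the 3 promoters held 4 half-sites in the 250 bases before its RefSeq start, and 3 of those of Nr4a3 are in the stretch shown. At least 1 half-site was found in 17.8% of 32851 promoter windows of the same length, searched on both strands. The share of windows with 4 was not counted, and the windows were not matched for base composition, so this share is no reference for 4 half-sites. The full palindrome TGACGTCA, present in 1.55% of the windows, was in none of the NR4A windows, and neither was the C/EBP-type motif TTGCNNAA, present in 9.56%. Of the other members in that table, Rara had a half-site at 1 of its 4 starts, and TTGCNNAA matched upstream of 1 of 2 Esr1 starts and 1 of 3 Pparg starts. Also searched were GAGGAA (PU.1 type, in 23.3% of windows), TGANTCA (AP-1 type, 6.75%) and AAAGGTCA (the monomer site of NR4A receptors, 1.34%). None of these was in an NR4A window, while GAGGAA matched upstream of 1 Esr1 start and 1 Pparg start and AAAGGTCA upstream of 1 of 2 Rxra starts. Every full palindrome also holds the half-site. A match is a string of letters and was not tested as a binding site.

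Totals ran from 13044456 to 23131776 counts per library. The libraries of WT at 6 hpi replicate 1 and R35K at 3 hpi replicate 2 held 0.73% and 0.473% of their counts on 1 ribosomal RNA gene. The other 34 held at most 0.149%. Chi-square per degree of freedom between replicates was 18.05 and 9.94 in these 2 groups and at most 3.70 in the others. It covered genes with a mean count of at least 100, this gene among them. Without each of the 2 libraries the same members were called at its timepoint. Levels are given as CPM, counts scaled to library size over all 36 libraries together. The tests of WT with R35A cells and of R35K cells alone each had a scaling of their own. Ratios of the CPM printed here can thus differ from the tested changes, as at 120 hpi. R35K libraries have tables of their own, so they were tested against the others only through their change from 0 hpi, and their levels set beside those of WT and R35A cells are a description without a test. B cell markers summed to 3383 to 3715 CPM at 0 hpi and to 63.6 to 138 CPM at 120 hpi, while macrophage markers went from 51.2 to 59.5 CPM to 20910 to 32480 CPM. Markers of fibroblasts, the cell type of the feeders, summed to 1123 to 1221 CPM at 0 hpi and 1679 to 2914 CPM at 1 to 18 hpi. At 120 hpi they summed to 142 to 164 CPM in WT, 497 to 507 CPM in R35A and 372 to 437 CPM in R35K cells, with Lum at 0 in both libraries of each construct. In WT cells 8 of these 9 markers rose at 1 hpi and all 9 fell at 120 hpi. Granulocyte markers summed to 41.9 to 55.5 CPM at 0 hpi and 2161 to 2714 CPM at 120 hpi, where in WT cells 6 of 7 tested fell and Mmp8, which was named after its values were seen, rose. T and NK cell markers summed to 1.78 CPM or less in every library. In bulk RNA, fewer cells of a type and less RNA per cell cannot be told apart, and the part of the feeder markers in the members' values was not tested.

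At least 5 of the 10 members rose at each timepoint with each construct. The members were chosen with earlier results of these data known, so the shares of all genes are a reference and not a test. A gene was called where its level changed at least 1.5-fold with an adjusted p of 0.05 or less over all genes tested in edgeR. In WT cells 7, 6, 7, 8 and 8 of the 10 members were higher at the successive timepoints than at 0 hpi, where 10.7%, 12%, 15.1%, 23.9% and 23.1% of all genes tested were called higher. In R35A cells the numbers were 8, 8, 8, 8 and 6, against 18.3%, 17.9%, 18.5%, 21% and 24.2% of all genes. In R35K cells they were 6, 8, 5, 5 and 8, against 15.5%, 15.9%, 16.3%, 18.4% and 25.4%. With DESeq2's size factors the counts were 8 and 9 in WT cells at 6 and 120 hpi, 8 in R35A cells at 120 hpi, and 8 and 7 in R35K cells at 1 and 6 hpi. The only member called lower than at 0 hpi in any of these comparisons was Esr1 at 18 hpi, with each of the 3 constructs, where 23.2%, 21.6% and 20.5% of genes were called lower. In WT cells at 120 hpi 40.2% of all genes were called lower. Nr3c1 was called in none of them. At 120 hpi the median change of all genes was -0.36, -0.31 and -0.28 on the log2 scale in WT, R35A and R35K cells, and a change given for 120 hpi is that much larger when counted from the median gene.

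Nr4a1 encodes Nur77, a receptor induced rapidly by B cell receptor signalling. Its level in WT cells was 255 and 268 CPM before induction and 626 and 609, 625 and 658, 670 and 693, 615 and 583 and lastly 987 and 895 CPM at the successive timepoints, with 2 replicates each. Both libraries of every induced timepoint lay above both libraries at 0 hpi, and those at 120 hpi were the highest. The log2 change was 1.26 ± 0.04 (SE) at 1 hpi (edgeR adjusted p = 1.3e-31) and 1.72 ± 0.04 at 120 hpi (adjusted p = 1.1e-38). In R35A cells Nr4a1 was at 267 and 274 CPM before induction and 467 and 461, 408 and 425, 426 and 426, 524 and 542 and lastly 426 and 392 CPM. The R35A libraries overlapped the WT libraries at 0 hpi, and from 1 hpi on every R35A library was below both WT libraries of its timepoint. In R35K cells the values were 263 and 266 CPM before induction and 478 and 468, 486 and 485, 333 and 336, 349 and 354 and lastly 535 and 520 CPM. R35K cells had a first high at 1 and 3 hpi, were lower at 6 and 18 hpi, and were highest at 120 hpi.

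Nr4a2, the Nurr1 gene, had a similar course at a lower level. In WT cells it was at 54.3 and 59.3 CPM before induction and 110 and 110, 130 and 124, 151 and 149, 144 and 145 and lastly 173 and 181 CPM. The 120 hpi libraries were above all others. R35A cells had 59.5 and 63.5 CPM before induction and 126 and 123, 108 and 113, 112 and 110, 124 and 121 and lastly 102 and 98.9 CPM. Here the 1 and 18 hpi libraries were the highest, and the 120 hpi pair was the lowest after induction. R35K cells had 63.5 and 60.7 CPM at 0 hpi, 84.2 to 104 CPM at 1 to 18 hpi and 120 and 131 CPM at 120 hpi. Nr4a2 rose in WT cells at all 5 timepoints, by 0.98 ± 0.05 (log2, SE) at 1 hpi and 1.52 ± 0.05 at 120 hpi.

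Nr4a3, the Nor1 gene, was the least abundant of the family. In WT cells it was at 32.1 and 30.6 CPM before induction and 60.1 and 59.9, 60.8 and 57.0, 70.8 and 72.8, 67.3 and 66.7 and lastly 67.3 and 72.1 CPM. In R35A cells it was at 33.9 and 35.1 CPM at 0 hpi, 52.1 to 59.8 CPM at 1 to 18 hpi and 38.3 and 36.6 CPM at 120 hpi. The WT libraries at 6 and 120 hpi overlapped, whereas the R35A libraries at 120 hpi were close to those at 0 hpi and below all others, and the sign of their small change from 0 hpi depended on the scaling. In R35K cells it was at 34.1 and 31.6 CPM at 0 hpi, 47.6 to 55.8 CPM at 1 to 6 hpi, and then 40.9 and 41.8 and lastly 42.2 and 44.1 CPM. Nr4a3 rose at all 5 timepoints in WT cells and at 1, 3, 6 and 18 hpi in R35A cells. In R35K cells it was called at 3 hpi only, by 0.64 ± 0.06 (log2, SE). Several calls of the family sat at the 1.5-fold limit. In R35A cells at 120 hpi the changes of Nr4a1 (0.47 ± 0.04) and Nr4a2 (0.58 ± 0.05) were not called. Both passed with DESeq2 or its size factors (0.60 and 0.71). They also passed with a filter on 10 counts or 36 libraries in one fit (0.59 and 0.70), and when any 1 of 8 and 16 libraries was left out. In R35K cells those size factors added Nr4a2 and Nr4a3 at 1 hpi (0.59 and 0.63) and at 6 hpi (0.60 and 0.59). In R35A cells at 3 hpi Nr4a1 lost its call without R35A 0 hpi replicate 1 (0.58) or 3 hpi replicate 2 (0.57), and Nr4a3 without 0 hpi replicate 1 (0.57) or 3 hpi replicate 1 (0.58). Nr4a3 at 6 hpi lost it without 0 hpi replicate 1 (0.58) or 6 hpi replicate 1 (0.58). In R35K cells at 3 hpi Nr4a3 lost it without 0 hpi replicate 2 (0.58) or 3 hpi replicate 1 (0.57).

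**Figure D1:**
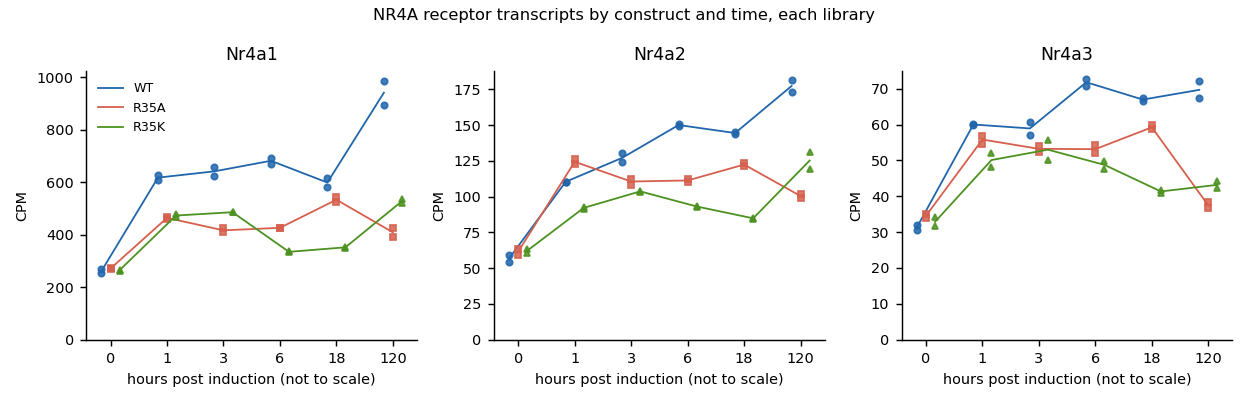
CPM (y axis) of Nr4a1, Nr4a2 and Nr4a3 in each of the 36 libraries against hours post induction (x axis). Points are single libraries and lines join the means of 2 replicates for WT, R35A and R35K. The 3 constructs start close together at 0 hpi, and at 120 hpi the WT points are the highest in each panel (Nr4a1 at 987 and 895 CPM).

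At 120 hpi Nr4a1, Nr4a2 and Nr4a3 were lower in R35A than in WT cells, by log2 differences of -1.20 ± 0.04, -0.81 ± 0.04 and -0.89 ± 0.06 (SE, edgeR adjusted p = 1.3e-30, 2.2e-22 and 2.9e-18). At that timepoint 6.38% of all genes were called lower and 12.4% higher in R35A cells. The change from 0 hpi differed between the constructs by -1.25 ± 0.06, -0.93 ± 0.06 and -1.03 ± 0.09 for the 3 genes. The same test of R35K against WT at 120 hpi gave -0.85 ± 0.06, -0.63 ± 0.07 and -0.76 ± 0.09. All 3 genes thus ended lower, relative to their start, with either mutant than with WT. For Nr4a2 in R35K cells this difference fell under 1.5-fold without WT 0 hpi replicate 1 (-0.56) or R35K 120 hpi replicate 1 (-0.57).

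At earlier timepoints Nr4a1 was lower in R35A than in WT cells at 3 and 6 hpi (-0.65 ± 0.04 and -0.68 ± 0.04). The changes of R35K cells were smaller than those of WT cells at 6 and 18 hpi, with differences of -1.04 ± 0.06 and -0.78 ± 0.06 for Nr4a1, -0.82 ± 0.07 and -0.90 ± 0.07 for Nr4a2, and -0.63 ± 0.08 and -0.77 ± 0.09 for Nr4a3. That of Nr4a3 at 6 hpi became -0.57 without R35K 0 hpi replicate 1. A difference between separate cultures cannot be told apart from the construct.

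Other immediate early genes, which answer mitogenic and inflammatory signals as the NR4A genes do, were read beside them. Of the 19 listed, 11 rose and none fell at 1 hpi in WT cells, and 18 rose and 1 (Fosl1) fell at 120 hpi. Of all genes, 10.7% were called higher at 1 hpi, and 23.1% higher and 40.2% lower at 120 hpi. The median log2 change of the list at 120 hpi was 1.76, against -0.36 for all genes. The largest changes were those of Egr2 (4.53), Fos (4.49), Zfp36 (3.90) and Atf3 (3.83). At 120 hpi 4 of the 19 were lower in R35A than in WT cells and 1 was higher, where 6.38% of all genes were called lower and 12.4% higher. The lower genes were Egr1 (-1.11), Egr2 (-1.06), Egr3 (-1.50) and Dusp2 (-1.11), and the higher was Jun (0.69), all 5 named after their values were seen.

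The Esr1 row took a course of its own. Esr1 lies on chr10:4611593-5005614 (mm10, plus strand). The fusion protein contains an estrogen receptor part, so reads of this row may come from the virus as well as from the gene, and these cannot be told apart here. In WT cells Esr1 was at 59.7 and 61.5 CPM before induction and 143 and 147, 135 and 143, 121 and 126, 27.4 and 26.9 and lastly 122 and 130 CPM. The level was high at 1 to 6 hpi, lowest at 18 hpi and high again at 120 hpi, and the 18 hpi libraries were below all others. R35A cells had 54.9 and 53.5 CPM before induction and 46.0 and 46.0, 48.6 and 50.3, 44.6 and 43.4, 25.4 and 26.8 and lastly 144 and 160 CPM. They lacked the early high of WT cells and shared the low at 18 hpi and the high at 120 hpi. R35K cells had 59.5 and 63.6 CPM at 0 hpi, 68.1 to 78.1 CPM at 1 to 6 hpi, and then 36.5 and 33.7 and lastly 183 and 173 CPM. At 1 to 6 hpi the R35K libraries lay between those of the other constructs.

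Esr1 in WT cells rose by 1.28 ± 0.05 (log2, SE) at 1 hpi, and its change at 18 hpi was -1.16 ± 0.06. Between 6 and 18 hpi it fell in all 3 constructs, with changes of -2.17 ± 0.05 in WT, -0.75 ± 0.06 in R35A and -1.08 ± 0.06 in R35K cells, where 10%, 2.76% and 4.28% of all genes were called lower. Between 18 and 120 hpi it rose by 2.09 ± 0.06, 2.43 ± 0.05 and 2.28 ± 0.06, against 27.5%, 24.5% and 24.7% of genes. R35A cells had less Esr1 than WT cells at 1, 3 and 6 hpi (-1.70 ± 0.05, -1.52 ± 0.05 and -1.49 ± 0.05), where 10.8%, 9.04% and 7.52% of genes were called lower. The changes of R35K cells at 1, 3 and 6 hpi were smaller than those of WT cells, with differences of -0.97 ± 0.07, -1.0 ± 0.07 and -0.74 ± 0.07.

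Cebpa, the other gene of the construct and an endogenous myeloid gene, did not keep a fixed ratio to Esr1. The counts of Esr1 over those of Cebpa were 1.39 and 1.60 in the WT libraries at 0 hpi, between 1.31 and 1.57 at 1 to 6 hpi, and then 0.705 and 0.701 at 18 hpi and 1.12 and 1.30 at 120 hpi. In R35A libraries they were 1.39 and 1.53 at 0 hpi, 0.746 to 0.870 at 1 to 6 hpi, and then 0.481 and 0.512 and lastly 0.958 and 1.27. In R35K libraries they were 1.52 and 1.72, 0.769 to 0.861, 0.440 and 0.371, and 1.27 and 1.36 at the same stages. The ratios of the mutants at 1 to 6 hpi did not overlap those of WT cells, while those at 0 hpi did. Cebpa itself was at 43.0 and 38.5 CPM at 0 hpi and 105 and 101 at 1 hpi in WT cells, and at 39.6 and 34.9 and then 52.8 and 55.6 in R35A cells.

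**Figure D2:**
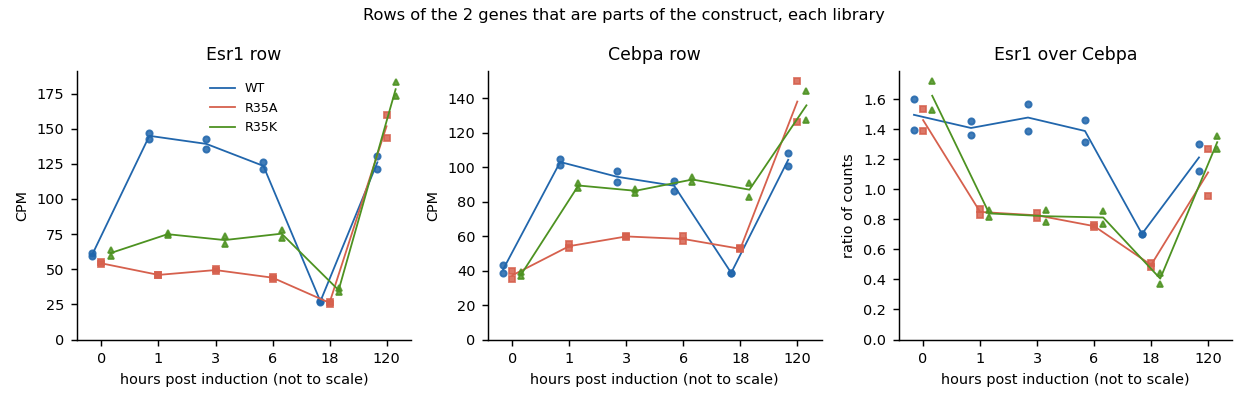
CPM of the Esr1 and Cebpa rows and the ratio of their counts (y axes) in each library against hours post induction (x axis), with lines through the means of 2 replicates for WT, R35A and R35K. The Esr1 row of WT cells is at 121 to 147 CPM at 1 to 6 hpi and 27.4 and 26.9 CPM at 18 hpi, and the ratio is lowest at 18 hpi for each construct.

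Listed estrogen receptor target genes, known mainly from reproductive tissues, were read beside Esr1. Of the 7 tested, 3 rose and none fell at 1 hpi in WT cells (10.7% of all genes called higher). At 120 hpi 5 rose and 1 fell (23.1% of all genes called higher and 40.2% lower), with a median log2 change of 1.26. Greb1, an estrogen-induced gene of breast cells, rose by 1.87 at 1 hpi and 2.51 at 120 hpi. Ctsd (2.16), a lysosomal protease, and Ccnd1 (1.5), a cell cycle driver, also rose. Pgr, the progesterone receptor, fell, with 184 and 201 counts at 0 hpi and 2 and 1 at 120 hpi. Of the 8 listed chaperones and cochaperones of steroid receptors, none rose and 5 fell in WT cells at 120 hpi, where 40.2% of all genes were called lower, from Hsp90aa1 (-0.90) to Fkbp4 (-1.10), with a median of -0.91.

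Pparg, the lipid-sensing receptor of fat cells and of several macrophage types, rose at every timepoint with every construct. In WT cells its level was 1.71 and 2.13 CPM before induction and 5.12 and 5.78, 3.95 and 4.23, 5.36 and 5.28, 8.54 and 6.42 and lastly 24.1 and 25.9 CPM. In R35A cells it was 1.94 and 1.81 CPM before induction and 8.91 and 9.63, 9.64 and 9.14, 8.62 and 8.96, 12.0 and 12.9 and lastly 11.3 and 13.0 CPM. R35A libraries were above both WT libraries from 1 to 18 hpi and below both at 120 hpi. R35K cells had 2.20 and 2.83 CPM at 0 hpi, 9.05 to 12.4 CPM at 1 to 6 hpi, and then 14.8 and 11.5 and lastly 15.8 and 14.1 CPM. The log2 change of WT cells was 1.53 ± 0.20 (SE) at 1 hpi and 3.57 ± 0.15 at 120 hpi. That of R35A cells was 2.28 ± 0.17 and 2.58 ± 0.17, and that of R35K cells was 2.0 ± 0.17 and 2.47 ± 0.16.

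The difference in Pparg between R35A and WT turned its direction along the time course. It was higher in R35A cells by 0.72 ± 0.13, 1.17 ± 0.14, 0.73 ± 0.13 and 0.73 ± 0.11 at 1, 3, 6 and 18 hpi (log2, SE) and lower at 120 hpi, with a difference of -1.02 ± 0.10 and with edgeR adjusted p from 6.4e-12 to 7.8e-06. At the first 4 of these timepoints 8.51%, 7.95%, 6.2% and 6.9% of all genes were called higher in R35A cells. The call at 18 hpi was lost without WT 18 hpi replicate 2, where the difference was 0.55. As a difference in change from 0 hpi the values were 0.75 ± 0.28, 1.21 ± 0.29, 0.76 ± 0.29 and 0.77 ± 0.28 (edgeR adjusted p = 0.037, 8.4e-04, 0.043 and 0.04) and -0.99 ± 0.27 at 120 hpi (adjusted p = 0.0034). Counts at 0 hpi, on which these rest, were 25 to 34 per library.

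The differences in change of Pparg at 3 and 120 hpi stayed called whichever library was left out. The calls at 1, 6 and 18 hpi were lost when any of 5, 7 and 6 libraries was left out (values from 0.59 to 0.92, edgeR adjusted p from 0.0502 to 0.279). These were WT 0 hpi replicate 2 and both R35A 0 hpi replicates in each case and WT 0 hpi replicate 1 for 6 and 18 hpi. The others were WT 1 hpi replicate 1, R35A 1 hpi replicate 2, both WT 6 hpi replicates, R35A 6 hpi replicate 2, WT 18 hpi replicate 2 and R35A 18 hpi replicate 2. In R35K cells the change of Pparg was larger than in WT at 3 and 6 hpi (0.85 ± 0.29 and 0.80 ± 0.28) and smaller at 120 hpi (-1.12 ± 0.26), and the differences at 1 and 18 hpi were not called (0.55 ± 0.28 and 0.45 ± 0.28). Both early calls were lost without WT 0 hpi replicate 2 or R35K 0 hpi replicate 1. The first was also lost without WT 3 hpi replicate 1 or R35K 3 hpi replicate 2, and the second without either WT 6 hpi replicate or R35K 6 hpi replicate 2 (values from 0.62 to 0.80). None of these 5 early calls held with no low-count filter (0.77 to 0.82). With DESeq2 those of R35A at 6 and 18 hpi and of R35K at 6 hpi were lost (0.78, 0.71 and 0.75), with its size factors in edgeR that of R35A at 18 hpi (0.71), and with 36 libraries in one fit that of R35A at 6 hpi (0.77).

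Listed PPARγ target genes include fatty acid carriers and enzymes of lipid breakdown. Of 10 tested, 4 rose and none fell at 1 hpi in WT cells (10.7% of all genes called higher). At 120 hpi 6 rose and 2 fell (23.1% of all genes called higher and 40.2% lower), with a median log2 change of 1.86. The largest were those of Lpl (8.91), a lipase, Fabp4 (6.21) and Fabp5 (4.29), fatty acid carriers, and Cd36 (3.57), a scavenger receptor. At 1, 3, 6 and 18 hpi 5, 5, 5 and 6 of the 10 were higher and 1, 1, 0 and 0 lower in R35A than in WT cells, and at 120 hpi 1 was higher and 1 lower. The shares of all genes called higher were 8.51%, 7.95%, 6.2%, 6.9% and 12.4%. Those called lower were 10.8%, 9.04%, 7.52%, 3.17% and 6.38%. Fabp5 was higher in R35A cells by 1.38 at 1 hpi, and the difference of Lpl was -0.73 at 120 hpi. Angptl4, a secreted inhibitor of lipoprotein lipase, and Pdk4, a kinase that limits glucose oxidation, were the 2 that fell in WT cells (-1.86 and -0.66).

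Nr1h3 encodes LXRα, which in macrophages drives cholesterol export when oxysterols bind it. It was the member with the fewest reads, from 5 to 179 counts per library. WT cells had 0.548 and 0.356 CPM at 0 hpi, 0.614 to 1.31 CPM at 1 to 18 hpi and 5.39 and 6.11 CPM at 120 hpi. R35A cells had 0.737 and 0.266 CPM before induction and 1.56 and 2.46, 2.70 and 2.88, 2.66 and 3.11, 3.85 and 5.16 and lastly 12.9 and 11.2 CPM. The WT libraries at 120 hpi were far above all earlier ones, and from 1 hpi on both R35A libraries were above both WT libraries of their timepoint. R35K cells had 0.406 and 0.567 CPM before induction and 4.32 and 3.1, 3.37 and 3.28, 6.93 and 6.33, 10.6 and 10.6 and lastly 11.7 and 11.4 CPM. In R35K cells the level at 18 hpi was close to that at 120 hpi.

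At 120 hpi Nr1h3 had risen by 3.51 ± 0.34 (log2, SE) in WT, 4.52 ± 0.27 in R35A and 4.45 ± 0.24 in R35K cells. R35A exceeded WT at all 5 induced timepoints, by 0.82 ± 0.31, 1.96 ± 0.33, 1.76 ± 0.30, 2.13 ± 0.26 and 1.08 ± 0.18 in their order. The call at 1 hpi was lost without WT 1 hpi replicate 2 (0.57) or R35A 1 hpi replicate 2 (0.50), and also with limma on the log2 values. The WT rise was called at 1 and 18 hpi (1.29 ± 0.46 and 1.17 ± 0.47) and not at 3 and 6 hpi (0.61 ± 0.51 and 0.89 ± 0.49). The call at 1 hpi was lost without WT 0 hpi replicate 2 (1.01) or WT 1 hpi replicate 1 (1.03), and that at 18 hpi without WT 0 hpi replicate 2 (0.89) or WT 18 hpi replicate 2 (0.74). Gm13783, a noncoding transcript, overlaps Nr1h3 on the same strand, and reads shared between them cannot be told apart.

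As a difference in change of Nr1h3 from 0 hpi, R35A exceeded WT at 3 and 18 hpi (1.89 ± 0.68 and 2.06 ± 0.66). Both calls were lost without WT 0 hpi replicate 1 or R35A 0 hpi replicate 2, the first also without WT 3 hpi replicate 2 and the second without WT 18 hpi replicate 1 (values from 1.26 to 1.77). R35K exceeded WT at 1, 3, 6 and 18 hpi, by 1.65 ± 0.64, 2.15 ± 0.66, 2.85 ± 0.66 and 3.26 ± 0.66, with edgeR adjusted p = 0.045, 0.011, 4.8e-04 and 6.7e-05. The 2 later ones stayed called whichever library was left out. That at 3 hpi was lost without WT 0 hpi replicate 1 (1.80). That at 1 hpi was lost when any 1 of 12 libraries was left out (1.31 to 1.92), namely both at 0 hpi and replicate 2 at 1 hpi of WT, WT 6 hpi replicate 1, R35K 0 hpi replicate 1, R35K 1 hpi replicate 1 and both 120 hpi libraries of each construct. It was also lost with no low-count filter (1.59). The difference in change between R35A and WT at 6 hpi was not called, but passed with limma and with all 36 libraries in one fit (1.73 and 1.69).

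Listed LXR target genes act in cholesterol and phospholipid transport. Of 13 tested, 3 rose and 1 fell at 1 hpi in WT cells (10.7% of all genes called higher). At 120 hpi 10 rose and 1 fell (23.1% of all genes called higher and 40.2% lower), with a median log2 change of 1.36. Apoe (8.61), a carrier of lipids on lipoproteins, Smpdl3a (3.99), a phosphodiesterase, and Mertk (3.95), a receptor for dying cells, were among the largest. Apoc1, another lipoprotein component, had 0 and 0 counts at 0 hpi and 304 and 274 at 120 hpi. Abca1 and Abcg1, the cholesterol exporters, rose by 1.27 and 2.53, and Scd1, a fatty acid desaturase, had a change of -2.83. In R35A cells 11 rose and 1 fell at 120 hpi, where 24.2% of all genes were called higher. Against WT cells at 120 hpi, 5 of the 13 were higher and 1 lower, with 12.4% and 6.38% of all genes. Apoe was higher in R35A by 3.47 at 1 hpi and 0.99 at 120 hpi, whereas the difference of Apoc1 was -0.92 at 120 hpi.

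Vdr, the receptor of the active form of vitamin D, went up early. In WT cells it was at 3.01 and 3.27 CPM before induction and 10.6 and 8.87, 10.6 and 10.6, 12.3 and 11.6, 12.9 and 10.7 and lastly 7.69 and 8.69 CPM. R35A cells had 3.55 and 3.99 CPM at 0 hpi, 13.1 to 16.7 CPM at 1 to 18 hpi and 12.9 and 12.8 CPM at 120 hpi. R35K cells had 3.59 and 2.33, 9.67 to 15.4 and 13.4 and 11.4 CPM at these stages. Every induced library of each construct was above its 0 hpi libraries, and at 120 hpi both WT libraries were below those of the mutants. Both R35A libraries were above both WT libraries at all 6 timepoints, 0 hpi included. The log2 change at 1 hpi was 1.64 ± 0.16 in WT, 1.88 ± 0.13 in R35A and 1.82 ± 0.17 in R35K cells (SE). At 120 hpi Vdr was higher in R35A than in WT cells by 0.66 ± 0.13, a call that was lost without WT 120 hpi replicate 1 (0.57). No difference in change from 0 hpi between constructs was called for Vdr in edgeR, and the largest was 0.67 ± 0.27 for R35K against WT at 120 hpi (edgeR adjusted p = 0.059), which passed with limma (0.69) and without R35K 0 hpi replicate 1 (1.03) or R35K 120 hpi replicate 2 (0.796). Of 6 listed vitamin D pathway genes tested, 1 rose and 4 fell in WT cells at 120 hpi, against 40.2% of all genes called lower, with a median log2 change of -3.47, or -1.22 with genes of 3 or fewer counts set to that floor. Cyp27a1, a mitochondrial sterol hydroxylase, rose by 4.81, Cyp24a1, which degrades vitamin D, had 6 and 3 counts at 0 hpi and 0 and 0 at 120 hpi, and the calcium channel gene Trpv6 had 13 and 14 counts at 0 hpi and 0 and 0 at 120 hpi.

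**Figure D3:**
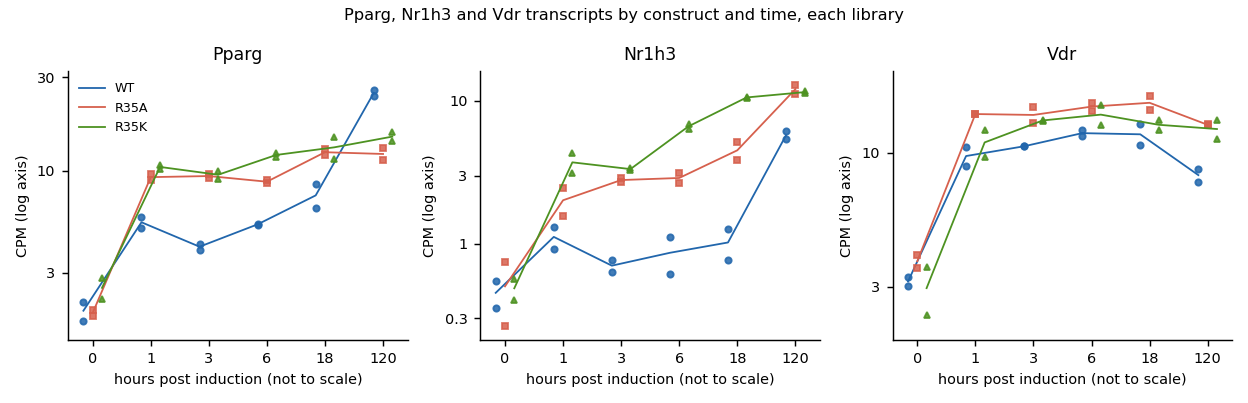
CPM (y axes, log scale) of Pparg, Nr1h3 and Vdr in each library against hours post induction (x axis), with lines through the means of 2 replicates for WT, R35A and R35K. Pparg of WT cells is below that of R35A cells at 1 to 18 hpi and above it at 120 hpi (24.1 and 25.9 CPM), and Nr1h3 of WT cells is at 0.614 to 1.31 CPM at 1 to 18 hpi.

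Rxra, the common dimer partner, started from a far higher level than Pparg and Nr1h3 and rose less. In WT cells it was at 72.1 and 74.2 CPM before induction and 84.3 and 81.8, 94.6 and 92.5, 107 and 109, 138 and 134 and lastly 121 and 118 CPM. R35A cells had 74.9 and 75.2 CPM at 0 hpi, 129 to 141 CPM at 1 to 18 hpi and 157 and 159 CPM at 120 hpi. R35K cells had 75.7 and 74.8, 122 to 145 and 157 and 162 CPM at these stages. WT cells reached the level that R35A cells had at 1 hpi only between 6 and 18 hpi. Rxra rose in WT cells by 0.89 ± 0.04 (log2, SE) at 18 hpi. Its changes of 0.55 ± 0.04 at 6 hpi and 0.58 ± 0.04 at 120 hpi were under 1.5-fold in the fit of WT and R35A cells. The CPM above, scaled over 36 libraries, give a larger rise at 120 hpi. That at 6 hpi passed with DESeq2, its size factors and limma (0.60 to 0.61). That at 120 hpi passed with these, a filter on 10 counts and 36 libraries in one fit (0.70 to 0.74). It also passed when any 1 of 16 libraries was left out. In R35A and R35K cells Rxra was called higher at all 5 timepoints. At 1 hpi it was higher in R35A than in WT cells by 0.61 ± 0.04.

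Rara, the retinoic acid receptor that pairs with Rxra, was in WT cells at 36.2 and 37.6 CPM before induction and 47.1 and 47.5, 54.9 and 50.5, 58.6 and 63.2, 69.1 and 62.6 and lastly 84.3 and 79.7 CPM. In R35A cells it was at 36 and 40.2 CPM at 0 hpi, 68.4 to 78.8 CPM at 1 to 18 hpi and 91.2 and 80.7 CPM at 120 hpi. In R35K cells it was at 42.0 and 38.0, 67.4 to 74.3 and 74.3 and 70.6 CPM at these stages. At 1 hpi both mutants were above WT, and at 120 hpi the R35A and WT libraries overlapped. The log2 changes at 1 hpi were 0.38 ± 0.07 in WT, 0.93 ± 0.06 in R35A and 0.77 ± 0.06 in R35K cells, and at 120 hpi 1.03 ± 0.07, 1.04 ± 0.06 and 0.75 ± 0.06. Rara was higher in R35A than in WT cells at 1 hpi by 0.61 ± 0.06. The matching difference in change was 0.55 ± 0.09 for Rara and 0.57 ± 0.06 for Rxra, both under 1.5-fold. Both passed with DESeq2, its size factors, limma, a filter on 10 counts and 36 libraries in one fit (0.60 to 0.64). Each also passed when any 1 of 10 libraries was left out, and that of Rxra with no low-count filter (0.59).

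Listed genes of retinoid transport and metabolism were read beside Rara and Rxra. In WT cells 7 of 12 rose and none fell at 1 hpi, 10 rose and none fell at 18 hpi, and 3 rose and 9 fell at 120 hpi, against 40.2% of all genes called lower. The shares of all genes called higher at these timepoints were 10.7%, 23.9% and 23.1%. The median log2 change of the list was 1.05 at 18 hpi and -3.05 at 120 hpi, or -2.0 with genes of 3 or fewer counts set to that floor. Tgm2 (4.74), a transglutaminase, and the dehydrogenases Dhrs9 (3.94) and Dhrs3 (3.69) were the 3 that rose at 120 hpi. Crabp1, which carries retinoic acid in the cytoplasm, had 194 and 170 counts at 0 hpi and 0 and 0 at 120 hpi, and its relative Crabp2 had 182 and 166 counts at 0 hpi and 1 and 2 at 120 hpi. Both had risen at 1 hpi (0.64 and 0.75). The fibroblast markers were likewise higher at 1 hpi and lower at 120 hpi, and their part in these values was not tested.

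Nr3c1, the glucocorticoid receptor, was the only member never called against 0 hpi, and its 36 libraries lay between 136 and 235 CPM. In WT cells the values were 180 and 178 CPM at 0 hpi, 150 to 161 at 1 to 18 hpi and 194 and 190 at 120 hpi. In R35A cells they were 180 and 174, 144 to 148 and 197 and 200, and in R35K cells 185 and 174, 136 to 150 and 222 and 235 at the same stages. Each construct had a shallow low from 1 to 18 hpi that did not overlap with 0 hpi. The most negative change was -0.41 ± 0.04 (log2, SE) in R35K cells at 1 hpi, under 1.5-fold. The only call in Nr3c1 was the step from 18 to 120 hpi in R35K cells, 0.60 ± 0.04. Summed fibroblast markers were high where Nr3c1 was low, with Pearson's r = -0.83 over 18 group means that share libraries and depth. This was the most extreme r of the members, and the others ran from -0.473 (Esr1) to 0.265 (Vdr).

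Of 9 listed glucocorticoid target genes tested, 4 rose and none fell at 1 hpi in WT cells (10.7% of all genes called higher). At 120 hpi 5 rose and 2 fell (23.1% of all genes called higher and 40.2% lower), with a median log2 change of 0.95. Dusp1 (3.45), a MAP kinase phosphatase that is also among the immediate early genes, and the clock gene Per1 (1.97) rose. Cd163, a haemoglobin scavenger receptor of macrophages, had 0 and 1 counts at 0 hpi and 297 and 264 at 120 hpi. Ddit4, a stress-induced inhibitor of mTOR signalling, rose by 0.59 at 1 hpi and changed by -2.19 at 120 hpi, and Klf9 changed by 0.52, which was not called, and -1.36.

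**Figure D4:**
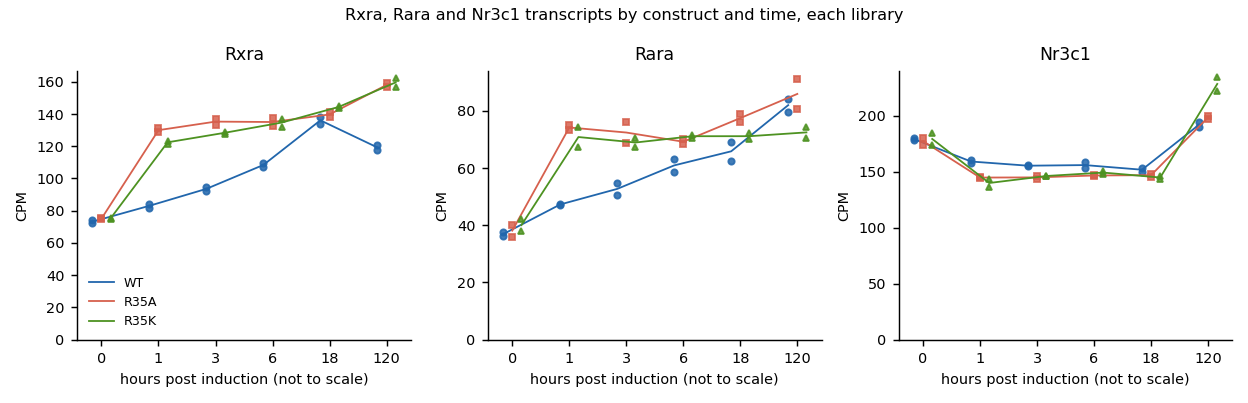
CPM (y axes) of Rxra, Rara and Nr3c1 in each library against hours post induction (x axis), with lines through the means of 2 replicates for WT, R35A and R35K. Rxra of R35K cells is at 122 to 145 CPM and that of WT cells at 81.8 to 138 CPM from 1 to 18 hpi, and Nr3c1 stays between 136 and 235 CPM throughout.

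On a scale that allows comparison between genes, CPM divided by the summed exon length in kilobases, Nr4a1 was the most abundant of the members other than Esr1 in all 18 groups, with group means from 74.5 to 268. Esr1 is left out of this scale, since the length that reads of the construct come from is not known. The group means of Nr3c1 reached 29.7, while those of Nr4a2 ran from 14.0 to 43.7 and those of Rxra from 13.4 to 29.2. Rara (8.45 to 19.7) and Nr4a3 (5.23 to 12.0) were lower, and the lowest at 0 hpi were Pparg (0.635 to 8.46 over all groups), Vdr (0.524 to 2.78) and Nr1h3 (0.180 to 4.80). At 0 hpi in WT cells the replicates of Nr4a2 and Rxra overlapped on this scale (means 14.0 and 13.4). Nr3c1 was second at 0 hpi, and in WT cells Nr4a2 was above it from 1 hpi on. Nr1h3 was the lowest in WT cells until 18 hpi and was above Vdr at 120 hpi (2.29 against 1.45).

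At 0 hpi no member differed between R35A and WT cells in edgeR, nor with an unadjusted p, DESeq2, limma or any other alternative run with that fold limit, and 0% of genes were called. The induced timepoints gave 5, 4, 4, 2 and 6 members called in their order, of which 4, 2, 2, 2 and 2 were higher in R35A cells. Of all genes, 8.51%, 7.95%, 6.2%, 6.9% and 12.4% were called higher in R35A cells, and 10.8%, 9.04%, 7.52%, 3.17% and 6.38% lower. Tested as differences in change from 0 hpi, 2, 4, 3, 2 and 4 members were called for R35A against WT, with 14%, 13%, 10.3%, 8.36% and 14.5% of all genes called. For R35K against WT 2, 3, 6, 4 and 4 members were called, with 11.9%, 10%, 12.2%, 13.3% and 10.1% of genes. These comparisons share the WT libraries.

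Between R35K and R35A a single member was called, Esr1 at 6 hpi (0.59 ± 0.08), and the shares of genes called were 5.83%, 3.02%, 5.89%, 3.44% and 1.61% at the successive timepoints. The Esr1 call was lost with DESeq2's size factors (0.53) and when any 1 of 11 libraries was left out (0.54 to 0.58), namely WT 6 hpi replicate 1, R35A 0 hpi replicate 1, R35A 6 hpi replicate 2, R35K 0 hpi replicate 1, R35K 6 hpi replicate 1 and both 120 hpi libraries of each construct. For Nr4a1 the changes of R35K and R35A differed by -0.57 ± 0.06 at 18 hpi, just under the limit, and the difference passed it with those size factors, with DESeq2, with limma and with no low-count filter. Under these settings the single call between the mutants was thus another gene in the other direction. Without R35A 0 hpi replicate 2 there were 4 calls, with Nr1h3 at 6 and 18 hpi and Nr4a2 at 18 hpi added, and without R35A 18 hpi replicate 1 there were 2, with Nr4a1 at 18 hpi added.

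**Figure D5:**
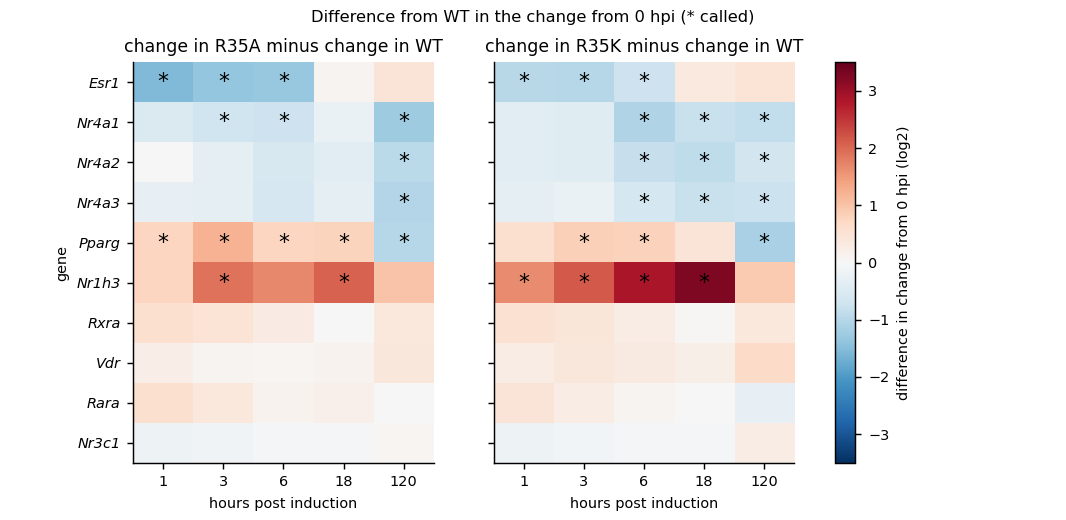
Heat map of the difference of each mutant from WT in the change from 0 hpi (log2, colour scale), with members as rows and hours post induction as columns. Stars mark called differences. Against WT, Pparg is positive before 120 hpi in both mutants, and the NR4A genes and Pparg are negative at 120 hpi (Pparg at -0.99 for R35A and -1.12 for R35K).

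The rest of the nuclear receptor family was read from a list of 39 further receptor genes, of which 25 were tested in WT and R35A cells. At 18 hpi 15 of these rose and 4 fell in WT cells, with a median log2 change of 0.73, against 23.9% of all genes called higher and 23.2% lower. At 120 hpi 3 rose and 10 fell, with a median of -0.21, where 23.1% of all genes were called higher. The 10 of 25 that fell are close to the 40.2% of all genes called lower. Pgr and the orphan receptor gene Esrrb were among those that fell, the latter with 40 and 46 counts at 0 hpi and 0 and 1 at 120 hpi. Nr2f2 (-3.93), a mesenchymal regulator known as COUP-TFII, also fell. It had risen at 18 hpi (0.72), as 8 of the 9 fibroblast markers had. Nr1h2, the gene of the LXRβ paralog, and Rxrb, a paralog of Rxra, were not called in WT cells at 120 hpi (0.07 and -0.08). Of 19 coregulators, 7 fell and none rose at 18 hpi in WT cells, where 23.2% of all genes were called lower and 23.9% higher. At 120 hpi 5 rose and 4 fell, with a median of 0.05, against 23.1% of all genes called higher and 40.2% lower. Ppargc1a, a coactivator of PPARγ, had 75 and 74 counts at 0 hpi and 0 and 1 at 120 hpi, and the corepressor gene Nrip1 changed by -1.48, whereas the coactivator genes Ncoa7 (2.07) and Ncoa3 (1.38) rose.

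The genes most like each member in their pattern over the 18 group means of log2 CPM were found among 17277 genes, as a description. Nr4a1 was closest to Nr4a2 (Pearson's r = 0.934), Thbs1 (0.928) and Cfap43 (0.921). Nr4a2 was closest to Thbs1 (0.967), Btg2 (0.965) and Tmcc3 (0.946), and Nr4a3 to Rap1gap2 (0.916), Nr4a2 (0.903) and Nr4a1 (0.885). Pparg was closest to Clec4a3 (0.982) and Clec4e (0.982), which encode C-type lectin receptors of myeloid cells, and to Cd300a (0.980). Nr1h3 was closest to Anpep (0.981), Abcc3 (0.980) and 2510009E07Rik (0.978). Rxra was closest to Mvb12b (0.984), Cdk18 (0.975) and Fam219a (0.975), and Rara to Rps6ka4 (0.980), Ptms (0.979) and Ltbr (0.979). Among the members Pparg, Rxra, Rara and Nr1h3 had pairwise r from 0.840 to 0.945. Among the genes closest to Vdr were Gm7809 (0.973) and Spire1 (0.970). Nr3c1 was closest to Pygb (0.979), Asnsd1 (0.974) and Marf1 (0.970), and Esr1 to Ankrd13a (0.971), Akna (0.946) and Ssh2 (0.944). These r come from group means of the same libraries.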

How the data were processed

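The 36 RNA libraries came from B cells carrying C/EBPα-ER. Per the labels and the study's methods, the authors prepared stranded mRNA libraries, aligned reads to mm10 with STAR 2.5.0a and deposited raw counts per gene, with R35K in separate tables. The annotation release and the strand setting are not given in the sources used here. The authors also deposited log2 values from DESeq2 1.14.1, which equal log2(count divided by a size factor, plus 1).

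Genes were tested on the deposited counts with edgeR 4.0.16 (R 4.3.3; filterByExpr, TMM, quasi-likelihood F test, Benjamini-Hochberg over all genes tested). WT and R35A were fitted together (24 libraries, 16988 genes), R35K alone (12 libraries, 16434 genes), and all 36 libraries (17277 genes) for differences in change involving R35K. A call needed at least 1.5-fold and an adjusted p of 0.05 or less. CPM use TMM over all 36 libraries, whereas each fit had TMM factors of its own. Errors are SE unless said otherwise, computed as the absolute log2 change divided by the square root of the F statistic. The code was tested on simulated data.

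Replicate numbers showed no general pairing of the samples, so they entered only as an alternative. Other alternatives were DESeq2 1.42.0, its size factors in edgeR, limma 3.58.1 on the log2 values, other low-count filters, a 2-fold limit, and leaving out each library. Members and gene lists were chosen with earlier results of these data known. All members are named. For each list, counts and at most 4 genes with the largest change at 120 hpi in WT cells are given, with a few others named after their values were seen. For each member, the 3 most similar genes are given, except 1 gene that is not reported here. Promoter windows come from RefSeq, where 9 of the 10 members matched.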

Additional observations from a re-analysis of the deposited data

Results flagged for a closer look

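A difference in change from 0 hpi between constructs, tested with edgeR, drew attention to 35 results, given as log2 values. None was tested against an outlier criterion, since each group holds 2 libraries.

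The change of Esr1 at 1, 3 and 6 hpi differed from that of WT by -1.54, -1.36 and -1.33 in R35A cells. There Esr1 did not rise as in WT, with changes of -0.26, -0.16 and -0.32 that were not called. In R35K cells the differences from WT were -0.97, -1.0 and -0.74, and R35K exceeded R35A by 0.59 at 6 hpi. Nr4a1 changed less than in WT by -0.70, -0.73 and -1.25 at 3, 6 and 120 hpi in R35A, and by -1.04, -0.78 and -0.85 at 6, 18 and 120 hpi in R35K cells. Nr4a2 differed by -0.93 at 120 hpi in R35A, and by -0.82, -0.90 and -0.63 at 6, 18 and 120 hpi in R35K cells. Nr4a3 differed by -1.03 at 120 hpi in R35A, and by -0.63, -0.77 and -0.76 at 6, 18 and 120 hpi in R35K cells.

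Pparg changed more than in WT by 0.75, 1.21, 0.76 and 0.77 at 1, 3, 6 and 18 hpi and less by -0.99 at 120 hpi in R35A cells. In R35K cells it changed more by 0.85 and 0.80 at 3 and 6 hpi and less by -1.12 at 120 hpi. Nr1h3 changed more than in WT by 1.89 and 2.06 at 3 and 18 hpi in R35A, and by 1.65, 2.15, 2.85 and 3.26 at 1, 3, 6 and 18 hpi in R35K cells. Fibroblast markers at 120 hpi summed to 142 to 164 CPM in WT, 497 to 507 in R35A and 372 to 437 in R35K cells, and their part in the 120 hpi differences was not tested.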

How the results depend on the processing

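Of 420 member results, 179 were called, and no result called with any setting changed its direction under another. Of the 179 calls, 174 were kept with DESeq2, 177 with its size factors in edgeR, 176 with limma on the log2 values, 178 with the filter on 10 counts, 171 with no low-count filter, and 156 whichever library was left out. With the replicate block 178 were kept and the difference in change of Nr1h3 between R35K and WT at 1 hpi was lost (edgeR adjusted p = 0.051), and the numbers of calls were 39 (R35A), 33 (R35K), 37 (WT), 21 (R35A against WT at the same timepoint), 15 (difference in change, R35A against WT), 1 (R35K against R35A) and 18 (R35K against WT), against 19 for the last without it. Differences between replicates 1 and 2 were correlated over 153 pairs of groups, with a median of -0.006 and 18 pairs over 0.1. The numbers thus showed no general pairing of the samples, and pairing within some groups was not tested. With a 2-fold limit the calls fell from 39 to 18 for R35A and from 33 to 16 for R35K against 0 hpi, from 21 to 10 between R35A and WT at the same timepoint, from 15 to 8, from 19 to 7 and from 1 to 0 for the differences in change (R35A against WT, R35K against WT and R35K against R35A). The last was 3 with unadjusted p. With DESeq2, its size factors, limma or no low-count filter the call between R35K and R35A passed from Esr1 at 6 hpi to Nr4a1 at 18 hpi. Leaving out each library in turn gave 36 to 38 calls for WT, 36 to 41 for R35A, 32 to 34 for R35K, 20 to 22 between R35A and WT at the same timepoint, and 11 to 17, 16 to 19 and 0 to 4 for those differences in change. DESeq2's size factors moved the median change of all genes at 120 hpi to -0.20, -0.18 and -0.14 in WT, R35A and R35K cells and at 18 hpi in WT cells from 0.02 to 0.14. They also moved the share of calls that were higher from 66.8% to 52.8% for R35K against WT at 18 hpi, and from 71.2% to 58.5% and 79.6% to 66.3% for R35K against R35A at 1 and 6 hpi. The cause was not tested. The depth limits Nr1h3, Pparg and Vdr at 0 hpi, where a library held between 5 and 75 counts.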
